A study of Mus musculus with 6 samples.

Results

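Ribosome footprints of 6 genes of major histocompatibility complex (MHC) class I antigen presentation were compared between resting and activated mouse CD4+ T cells. The genes were taken from a fixed list of Ensembl identifiers and all 6 were found among the 22322 genes of the deposited count table. They are B2m (ENSMUSG00000060802.8), H2-K1 (ENSMUSG00000061232.14), H2-D1 (ENSMUSG00000073411.10), Tap1 (ENSMUSG00000037321.16), Tapbp (ENSMUSG00000024308.13) and Nlrc5 (ENSMUSG00000074151.11). Both groups were helper T cells from spleen and lymph nodes of 6-week-old female C57BL/6J mice, isolated by negative selection, and both were untreated at 0 h, before any inhibitor of transcription or translation. The activated group had in addition been stimulated with beads carrying CD3 and CD28 antibodies, for a time not given in the sources used here. Each group had 3 libraries, labelled biological replicates 2, 3 and 4. The labels do not tie them to animals or cultures, so p-values cover only the spread between the libraries, which may be technical. The defining markers of CD4+ T cells could not be looked up, because the table carries identifiers without names.

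MHC class I molecules show short peptides from inside the cell to CD8+ T cells. A heavy chain, such as H2-K or H2-D in this strain, pairs with the light chain beta-2-microglobulin, encoded by B2m. Peptides are pumped into the endoplasmic reticulum by the TAP transporter, of which Tap1 encodes a subunit, and tapasin, encoded by Tapbp, holds empty class I molecules at that transporter while they are loaded. NLRC5 is a transcriptional regulator that acts at class I promoters through a conserved group of elements, among them an X2 box that resembles a cAMP response element and a Y box bound by NF-Y. Genes of this pathway are known to respond to interferons and to NF-kappaB.

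The sequence before the transcription start is shown for the 5 genes whose promoter was listed by RefSeq (build GRCm38.p6), because the first 3 share a spacing of elements and all 5 can be set beside their footprint changes. The windows are the 200 bases before the start of B2m (chr2:122147487-122147686, plus strand), H2-K1 (chr17:34000348-34000547, minus strand, the first of 2 starts listed), H2-D1 (chr17:35262894-35263093, plus strand), Tap1 (chr17:34187356-34187555, plus strand) and Tapbp (chr17:33919278-33919477, plus strand). The annotated H2-K1 gene spans chr17:33996012-34000619, so on the minus strand its window lies inside that span, not before its 5' end. Capitals mark matches, on either strand, to the X2-like letters TGACG, the Y box letters CCAAT, the interferon-response-like letters GAAANNGAA and the NF-kappaB-like letters GGGATTCCC.
B2m: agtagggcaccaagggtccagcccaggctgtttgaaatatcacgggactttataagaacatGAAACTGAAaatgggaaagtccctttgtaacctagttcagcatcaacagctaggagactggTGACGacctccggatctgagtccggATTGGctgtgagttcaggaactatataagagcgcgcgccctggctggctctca
H2-K1: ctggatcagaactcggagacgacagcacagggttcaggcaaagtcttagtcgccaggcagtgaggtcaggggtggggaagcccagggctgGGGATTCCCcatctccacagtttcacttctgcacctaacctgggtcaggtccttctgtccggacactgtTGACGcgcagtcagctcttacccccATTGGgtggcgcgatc
H2-D1: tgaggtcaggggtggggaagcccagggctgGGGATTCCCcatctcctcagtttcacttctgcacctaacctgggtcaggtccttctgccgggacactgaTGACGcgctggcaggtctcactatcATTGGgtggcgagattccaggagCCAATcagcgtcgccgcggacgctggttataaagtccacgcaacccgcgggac
Tap1: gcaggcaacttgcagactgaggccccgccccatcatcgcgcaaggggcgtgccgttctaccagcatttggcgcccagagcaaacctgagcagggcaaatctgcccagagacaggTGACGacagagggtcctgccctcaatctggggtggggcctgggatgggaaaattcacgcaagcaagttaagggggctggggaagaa
Tapbp: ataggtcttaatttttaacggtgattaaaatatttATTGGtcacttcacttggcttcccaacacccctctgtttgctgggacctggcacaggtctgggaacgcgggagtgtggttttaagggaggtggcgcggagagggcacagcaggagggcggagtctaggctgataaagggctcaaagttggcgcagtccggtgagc

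TGACG lay in 4 of the 5 windows (B2m, H2-K1, H2-D1 and Tap1), against 15.8% of 27025 promoter windows of the same length. CCAAT lay in 4 of the 5 (B2m, H2-K1, H2-D1 and Tapbp), against 30.0%. The heavy chain genes H2-K1 and H2-D1 both held GGGATTCCC, which 0.222% of windows held, and B2m alone held GAAANNGAA, which 5.62% held. The H2-K1 and H2-D1 windows both hold tttcacttc, which on the other strand has the same parts in the opposite order and was not searched for. How many windows hold that form was not counted, so B2m is not set apart by interferon-response-like letters in general. In B2m, H2-K1 and H2-D1 the first base of TGACG lay exactly 25 bases before the first base of ATTGG, the Y box letters read on the other strand. That arrangement, looked for after it had been seen, was present in 23 of the 27025 windows (0.0851%). It was not in the windows of Tap1 and Tapbp. The H2-K1 and H2-D1 windows share long identical stretches, so their matches, the spacing included, are not independent of each other. The letters searched for follow elements and responses already known for this pathway, as named above, so finding them in these windows is not a test. The motifs did not overlap each other, and a match describes letters only, not binding.

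**Figure D1:**
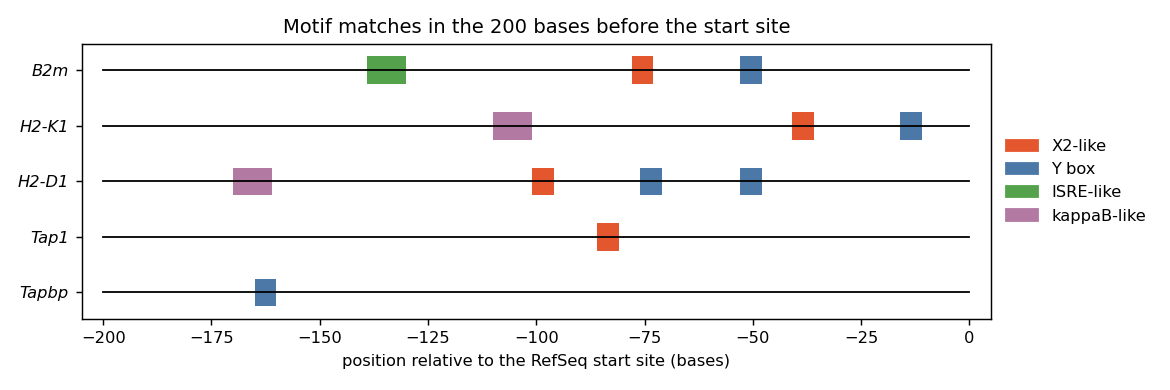
Motif matches in the 200 bases before the RefSeq start site of 5 genes, with the distance from the start in bases on the x axis and each match drawn as a coloured box to scale. The X2-like and Y box matches of B2m, H2-K1 and H2-D1 lie 25 bases apart at different distances from the start.

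Coding sequence (CDS) footprints of the genes that handle peptides and of the regulator were higher in activated cells, while those of the class I chains did not pass the test. Values are given in CPM, counts scaled to a common library total of 1000000 after TMM scaling, which adjusts totals for a shift of the typical gene. Tap1, Tapbp and Nlrc5 rose, 0 genes fell, and B2m, H2-K1 and H2-D1 did not pass an adjusted p of 0.05 in edgeR's quasi-likelihood test. Over all 6775 genes tested, 45.7% changed and 24.1% rose, so 3 rises among 6 genes stand against that background. The balance of rises and falls over all genes rests on the scaling: 1633 rose and 1464 fell with TMM, 1399 and 1897 with upper quartile factors, and 1102 (16.3%) and 2572 with library totals alone, under which the same 3 of the 6 genes rose. The median log2 change was 0.54 over the 6 genes and -0.04 over all genes tested. Library CDS totals ran from 437200 to 1074656 counts, and the 6 genes together held between 1.48% and 1.66% of them. In bulk libraries a change in the cells present and a change in RNA per cell cannot be told apart, and neither can more mRNA and more ribosomes per mRNA without the matching RNA libraries, which were not analysed here.

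Tap1, the transporter subunit, changed most. Its level was 433.2, 352.0 and 416.5 CPM in resting replicates 2, 3 and 4 (the order used throughout), against 1018, 898.8 and 1066 CPM in the activated ones. Every activated library lay above every resting library. The mean went from 401 ± 42.9 to 994 ± 85.9 CPM (SD, n = 3), a 2.48-fold rise (log2 change 1.31, SE 0.15, edgeR adjusted p = 2.54e-06). Of all genes tested, 10.3% had a higher log2 change.

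Tapbp, which encodes tapasin, stood at 624.5, 558.0 and 554.9 CPM in the resting and 1111, 917.7 and 900.6 CPM in the activated libraries. The groups did not overlap, and activated replicate 2 was the highest. The mean rose from 579 ± 39.3 to 976 ± 117 CPM (SD, n = 3), 1.68-fold (log2 change 0.75, SE 0.15, edgeR adjusted p = 0.00052).

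Nlrc5, the class I transactivator, was counted far less, with 19, 28 and 31 CDS counts in the resting and 37, 67 and 74 in the activated libraries. Its level was 39.95, 45.42 and 47.65 CPM in resting and 84.07, 84.22 and 78.77 CPM in activated cells, again without overlap. The mean rose from 44.3 ± 3.96 to 82.4 ± 3.11 CPM (SD, n = 3), 1.84-fold (log2 change 0.88, SE 0.21, edgeR adjusted p = 0.00312). The wider standard error goes with the low count.

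B2m, the light chain shared by all classical class I molecules, stood at 5753, 5745 and 6328 CPM in the resting and 7219, 7359 and 7693 CPM in the activated libraries. All activated values were above all resting values, but the difference did not pass the test (log2 change 0.32, SE 0.15, edgeR adjusted p = 0.0915). The means were 5940 ± 334 and 7420 ± 244 CPM (SD, n = 3).

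The heavy chain gene H2-K1 had 4386, 4167 and 4714 CPM in the resting and 5615, 5809 and 4986 CPM in the activated libraries. The groups did not overlap here either, with activated replicate 4 closest to the resting libraries (log2 change 0.31, SE 0.15, edgeR adjusted p = 0.106). The other heavy chain gene, H2-D1, had 2706, 2730 and 3068 CPM in the resting and 3138, 3350 and 2850 CPM in the activated libraries. These overlapped, since activated replicate 4 lay below resting replicate 4 (log2 change 0.13, SE 0.15, edgeR adjusted p = 0.472). In total 5 of the 6 genes had every activated library above every resting library, which held for 28.1% of all genes tested. With library totals alone it held for 3 of the 6, Tap1, Tapbp and Nlrc5, while B2m and H2-K1 overlapped and H2-D1 lay below. The share of all genes that were apart in either direction on that scale was not counted, so these stand without a background. Coding lengths were not available, so levels of different genes are not ranked.

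**Figure D2:**
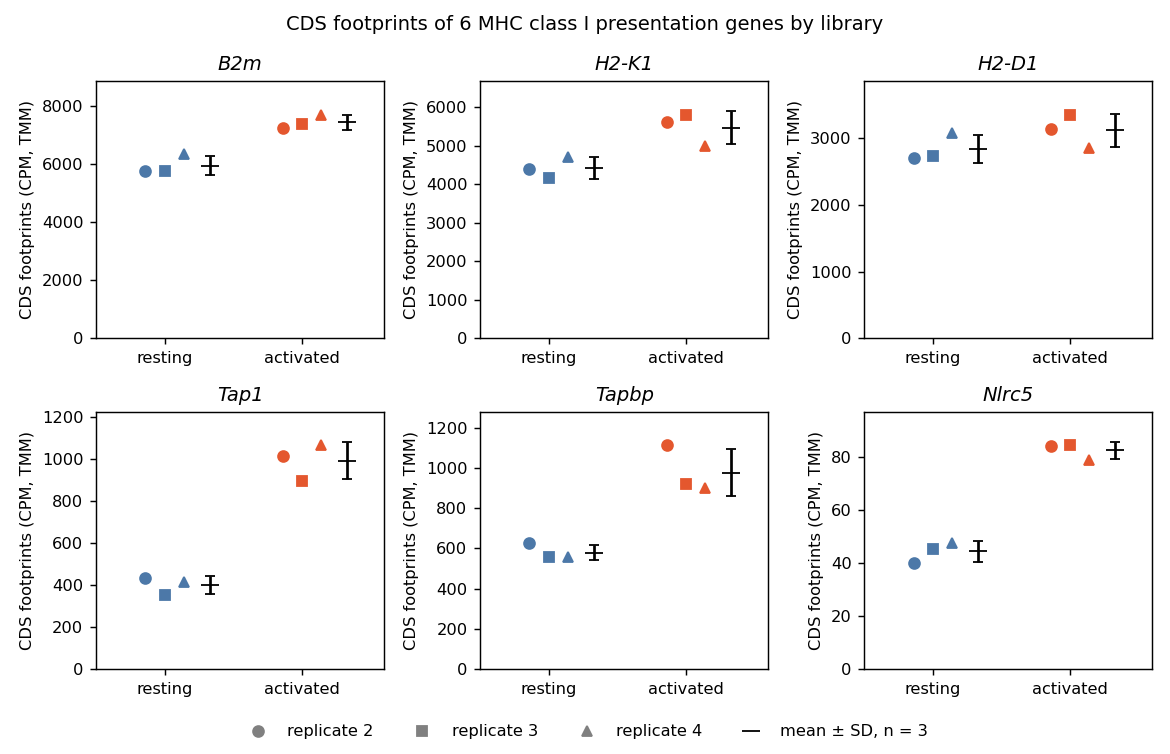
CDS footprints in CPM after TMM scaling (y axis, from 0) for each gene in 3 resting and 3 activated libraries, with symbols for the replicate number and black bars for the mean ± SD. Activated values lie above all resting values for every gene but H2-D1, whose groups overlap.

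The values of the 3 class I chains rest on the scaling between libraries. With library totals alone, which put the median log2 change of all genes at -0.38, the log2 change was -0.018 for B2m, -0.0332 for H2-K1 and -0.205 for H2-D1 (edgeR adjusted p = 0.927, 0.862 and 0.248). On that scale H2-D1 had 2944, 2974 and 3357 CPM in resting and 2700, 2927 and 2491 CPM in activated cells, so all activated values lay below all resting values. Tap1, Tapbp and Nlrc5 still rose, with log2 changes of 0.97, 0.41 and 0.54 (edgeR adjusted p = 5.01e-05, 0.0237 and 0.0426). B2m and H2-K1 also moved with the test: DESeq2 gave 0.36 for B2m (adjusted p = 0.00988) and 0.34 for H2-K1 (adjusted p = 0.0233), and limma voom gave 0.32 (adjusted p = 0.0216) and 0.30 (adjusted p = 0.0425). H2-D1 passed under none of the alternatives run.

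**Figure D3:**
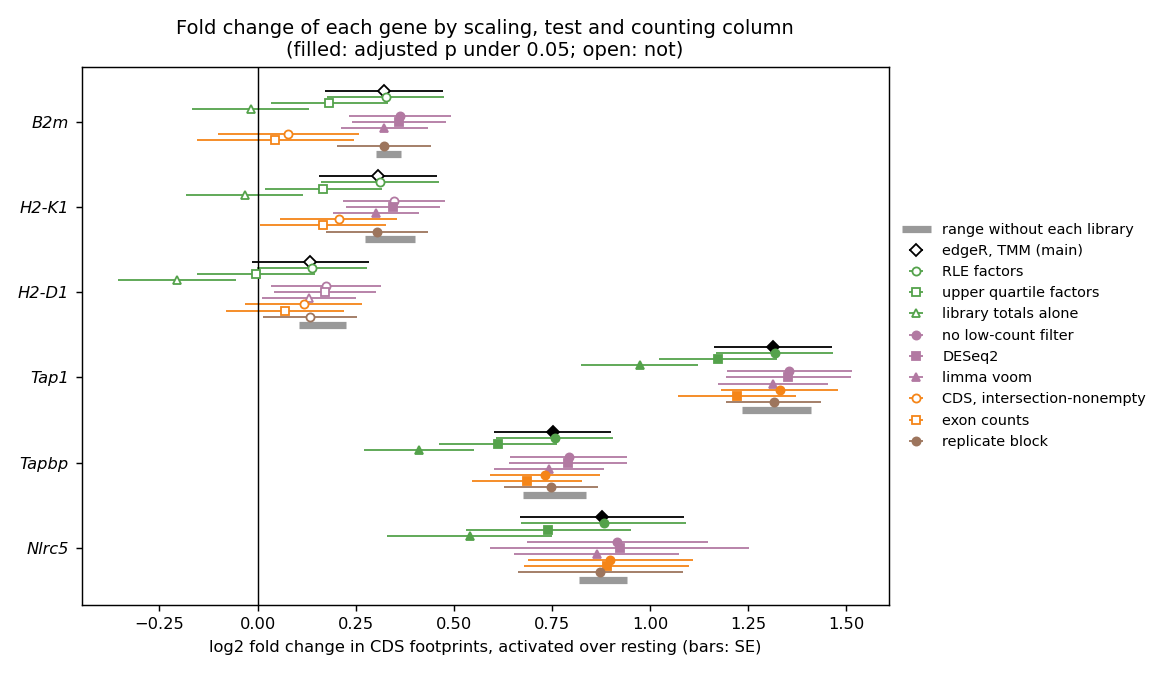
Log2 fold change of CDS footprints, activated over resting (x axis), for each gene under the main fit and 9 alternatives, with bars for the SE, filled symbols for an adjusted p under 0.05 and a grey bar for the range when each library is left out. Tap1, Tapbp and Nlrc5 lie right of 0 with filled symbols in every setting, lowest with library totals alone at 0.97, 0.41 and 0.54. The symbols of B2m, H2-K1 and H2-D1 lie at 0.36 or less and fall below 0 with library totals alone, as does H2-D1 with upper quartile factors. B2m and H2-K1 are filled with DESeq2, limma voom and the replicate block, and B2m also without a low-count filter. The grey bar of H2-K1 reaches 0.4.

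Counts of 1 gene per 100 counts of another in the same library do not depend on scaling. Tap1 had 7.53, 6.13 and 6.58 CDS counts per 100 B2m counts in the resting libraries against 14.1, 12.2 and 13.9 in the activated libraries. The transporter subunit thus gained on the light chain between the groups, with every activated ratio above every resting ratio. Tap1 also gained on Tapbp, from 69.4, 63.1 and 75.1 to 91.6, 97.9 and 118 per 100 counts. Between the heavy chains, H2-K1 had 162, 153 and 154 counts per 100 H2-D1 counts in resting and 179, 173 and 175 in activated cells. For B2m per 100 H2-K1 counts the resting libraries gave 131, 138 and 134 and the activated libraries 129, 127 and 154, with overlap. The sizes of these ratios follow the genes' lengths, so only their change is read.

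Of the 15 pairs of genes, 12 had ratios that did not overlap between the groups, each with an exact two-sided permutation p of 0.1, the smallest that 3 against 3 libraries can give (0.125 after Benjamini-Hochberg adjustment over the 15 pairs). Over all pairs of the 6756 tested genes with a CDS count in every library, 55.2% had ratios that were apart in either direction, so separation is common in these libraries and the 15 pairs, which share 6 genes, are not independent. The 3 others were B2m over H2-K1, Tap1 over Nlrc5 and Tapbp over Nlrc5. With CDS counts in intersection-nonempty mode, which adds the edge records described next, 10 pairs remained apart. The share over all pairs of genes was counted in the main column only, so the 10 stand without a background. H2-K1 per 100 H2-D1 then stood at 178, 169 and 167 in the resting and 178, 183 and 187 in the activated libraries, no longer apart (exact permutation p = 0.2), and the log2 difference went from 0.17 to 0.09. B2m over H2-D1 also lost its separation, going from 0.19 to -0.04. H2-K1 and H2-D1 are close relatives, which can lose records aligned to more than 1 place. Between 65.8% and 79.6% of all records in a library were not uniquely aligned, and the heavy chains' part in them was not tested.

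**Figure D4:**
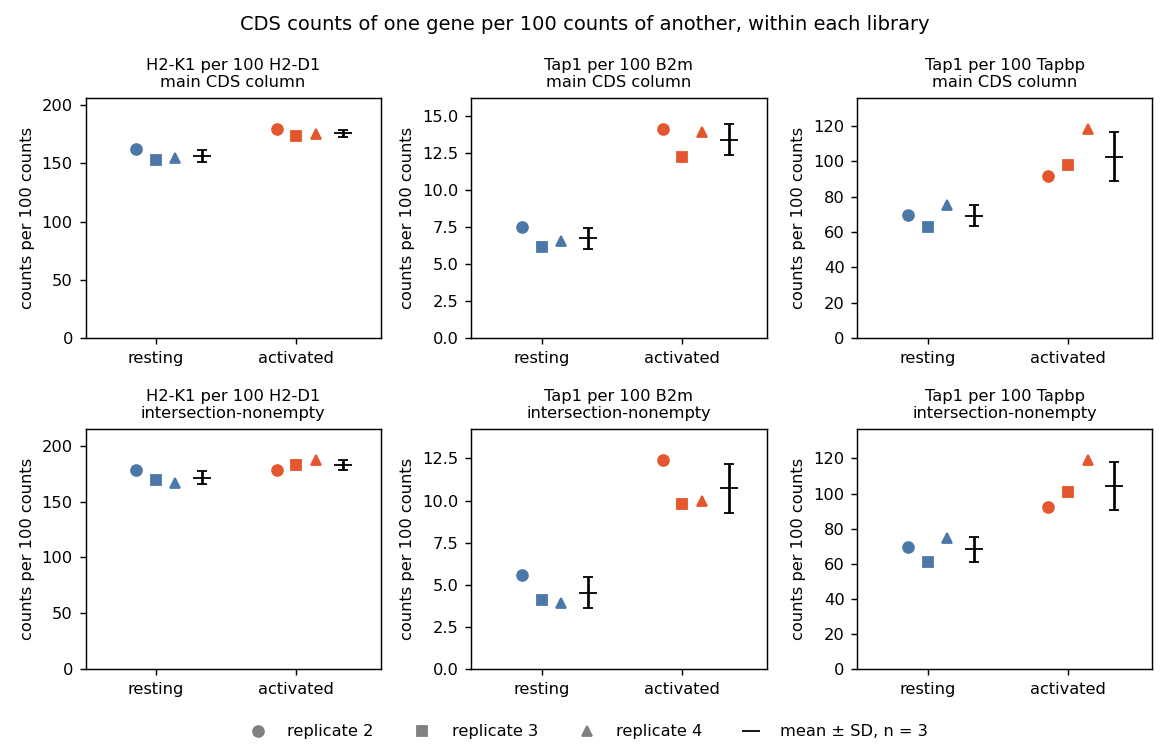
CDS counts of 1 gene per 100 counts of another within each library (y axis, from 0), for 3 pairs, in the main CDS column (top) and in intersection-nonempty mode (bottom), with replicate symbols and mean ± SD. Tap1 gains on B2m and on Tapbp in both columns, while H2-K1 per 100 H2-D1 is apart in the main column, at 153 to 162 against 173 to 179, and overlaps in the other.

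The table counts CDS records in 2 modes, and the genes differed widely in how many records only the more inclusive mode accepted. These are called edge records here, since they are counted in intersection-nonempty mode and not in the main CDS column; where in the gene they lie is not given. This comparison was added after the data had been seen. Over all genes the edge share of CDS records was between 9.80% and 10.6% in resting and between 7.74% and 8.87% in activated libraries. Pooled over the 6 libraries it was 32.3% for B2m, 17.7% for H2-K1, 12.2% for H2-D1, 6.54% for Tap1, 6.35% for Tapbp and 0.389% for Nlrc5, against a median of 6.05% over 4015 genes with at least 200 CDS counts. Of those genes, 1.49% had a share as high as that of B2m or higher.

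For B2m the edge share was 32.0%, 37.3% and 44.6% in the resting libraries against 16.0%, 25.9% and 31.9% in the activated libraries (replicates 2, 3 and 4), and the 95% Wilson interval of a library was at most ± 1.44 percentage points wide. All activated values lay below all resting values, narrowly so. For H2-K1 it was 21.4%, 23.5% and 20.2% in resting and 8.65%, 14.7% and 17.9% in activated cells. H2-D1 (13% to 15.1% against 9.26% to 12.3%) and Tapbp (7.67% to 9.47% against 4.31% to 5.90%) were apart in the same direction, and Tap1 and Nlrc5 overlapped. The 4 genes that were apart stand against 13.1% of 5829 genes with every activated library below every resting library, and the share over all genes was apart in that direction too. Those 5829 genes needed only 5 edge counts over the libraries of a group. No share was counted for genes with as many edge counts as these. Wilson intervals cover counting error only.

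Edge counts relative to main CDS counts were tested gene by gene. Each kind of count was scaled by its own factors, so the changes are not those of the unscaled ratio. This ratio changed in 0 of 5829 genes (0%) in edgeR's quasi-likelihood test, with 408 genes at an unadjusted p under 0.05. The log2 change of the ratio was -0.68 for B2m (SE 0.32, edgeR adjusted p = 0.706) and -0.58 for H2-K1 (SE 0.29, edgeR adjusted p = 0.718). Without each library these ran from -0.99 to -0.32 and from -0.86 to -0.25, nearest to 0 without activated replicate 2. The choice of column nevertheless sets the fold change of B2m: it was 0.32 in the main CDS column, 0.08 in intersection-nonempty mode (edgeR adjusted p = 0.743) and 0.04 in exon counts (edgeR adjusted p = 0.869). For H2-K1 these were 0.31, 0.21 and 0.17, and for Tap1 1.31, 1.33 and 1.22.

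**Figure D5:**
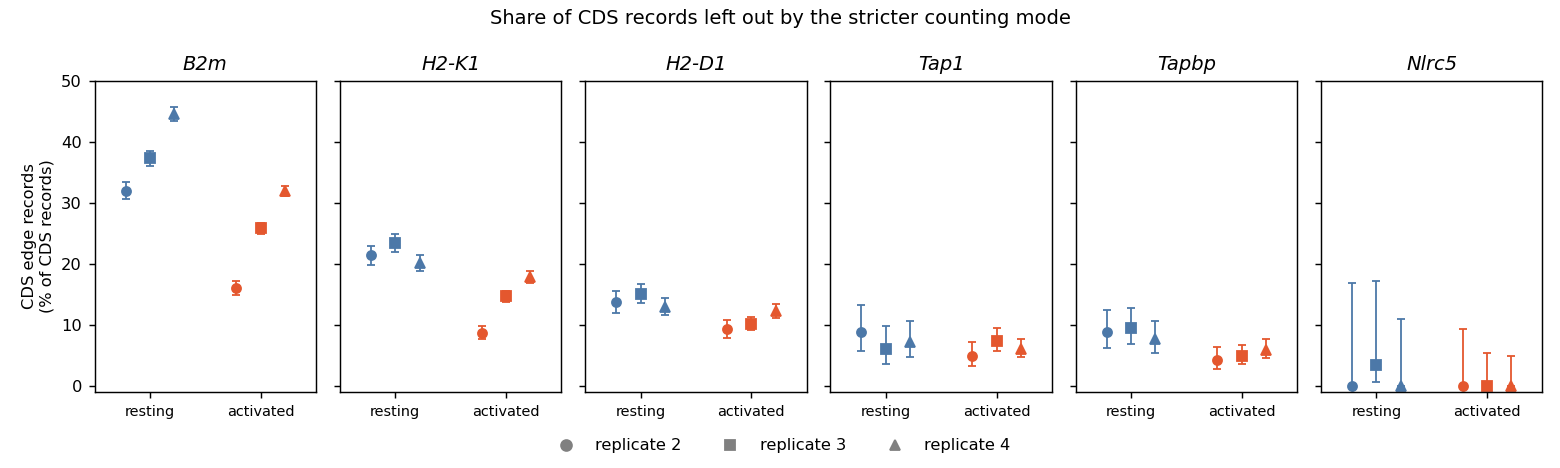
Share of CDS records counted only in intersection-nonempty mode (y axis, percent) for each gene in 3 resting and 3 activated libraries, with symbols for the replicate number and bars for the 95% Wilson interval. B2m runs from 16.0% to 44.6%, H2-K1 and H2-D1 lie lower, and Tap1, Tapbp and Nlrc5 lie below 10%.

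Footprints in the 5' UTR, the stretch before the start codon, were few for these genes. Tap1 had 24, 13 and 20 counts there in the resting libraries against 11, 26 and 38 in the activated libraries, while its CDS counts were 206, 217 and 271 in resting and 448, 715 and 1001 in activated cells. Per 100 CDS counts this was 11.7, 5.99 and 7.38 in resting and 2.46, 3.64 and 3.80 in activated cells, all activated values being below all resting values. A model over both regions scaled each by its own factors, so its changes are not those of the counts per 100. In that model the log2 change of the Tap1 ratio was -1.51 (SE 0.37, edgeR adjusted p = 0.103), which did not pass. With at least 20 counts asked for in each region, fewer genes were tested and it did pass (log2 change -1.61, edgeR adjusted p = 0.0280). When both regions shared a scaling factor it was -1.28 and did not pass (edgeR adjusted p = 0.23). Nor did it pass when each library in turn was left out (edgeR adjusted p from 0.0902 to 0.537).

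B2m had 24, 9 and 17 counts in the 5' UTR in resting and 51, 68 and 63 in activated libraries, or 0.877, 0.254 and 0.413 against 1.61, 1.16 and 0.872 per 100 CDS counts. These overlapped by a narrow margin, and the log2 change of 1.01 did not pass (SE 0.35, edgeR adjusted p = 0.332). H2-D1 had 29 counts over the resting and 23 over the activated libraries, and its ratio did not pass either (log2 change -1.02, SE 0.44, edgeR adjusted p = 0.444). H2-K1, Tapbp and Nlrc5 had 1, 5 and 0 such counts over all 6 libraries and were not tested. The share of genes that changed in this test was 0.103% of 5818, or 6 genes, and none of the 6 was a class I gene described here.

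The genes most like 2 of these in their pattern were found by the distance between log2 CPM values over the 6 libraries, each gene centred on its own mean. Among 6774 other genes, ENSMUSG00000057788.12 was nearest to Nlrc5, at a root mean square distance of 0.0266 on the log2 scale, and went from 76.0 ± 8.01 to 142 ± 7.96 CPM (SD, n = 3). ENSMUSG00000001289.11 was nearest to B2m, at 0.0292, and went from 135 ± 9.26 to 168 ± 6.37 CPM (SD, n = 3). None of the 6 class I genes had another of them as its nearest gene. With 6774 other genes to choose from, this says little about whether the 6 genes moved together.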

How the data were processed

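The authors deposited 1 table of raw counts per gene, in 6 columns per library: CDS in 2 modes, 5' UTR, 3' UTR, exons and introns, per the file headers. The submitters' processing notes name TopHat2 2.0.13, Bowtie 1.1.1.0, HTSeq and build mm10. Annotation, trimming and strand use are not given in the sources here. Without strand, overlapping genes cannot be separated. Summary rows naming no gene were left out of library sizes (11.8% to 14.5% of CDS-column records lay in no feature).

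CDS counts of all genes were fitted with edgeR 4.0.16 in R 4.3.3 (filterByExpr, TMM, glmQLFit, glmQLFTest, two-sided, Benjamini-Hochberg over 6775 genes, threshold 0.05). SE is the log2 change over the root of F. 5' UTR and edge counts were each tested against CDS counts in 1 edgeR model with a term per library, own scaling per region and at least 5 counts per region in a group. Alternatives used DESeq2 1.42.0, limma 3.58.1, other scalings, columns and subsets of libraries. Scripts were tested on simulated data. Members and lists were chosen with earlier results of these data known. The naming rule took all 6 members and, by likeness, at most 2 further IDs, here those at the smallest distances. The reference listed 0 Ensembl IDs, so the 6 lists of 70 pathway and marker genes could not be matched and were not used here.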

Additional observations from a re-analysis of the deposited data

How the results depend on the processing

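The 3097 genes called in the CDS fit became 2222 to 3674 over the 16 alternatives (DESeq2 lowest, library totals alone highest), and leaving out each library gave 2654 to 3055. Tap1, Tapbp and Nlrc5 rose, at an adjusted p under 0.05, in all 16, with log2 changes of 1.24 to 1.41, 0.68 to 0.84 and 0.82 to 0.94 without each library. The sign of B2m (-0.018), H2-K1 (-0.0332) and H2-D1 (-0.205) turned with library totals alone, and that of H2-D1 (-0.004) with upper quartile factors; without each library they were 0.30 to 0.37, 0.27 to 0.40 and 0.11 to 0.23, never past the threshold. B2m also passed without a low-count filter (0.36, edgeR adjusted p = 0.0394). The older quasi-likelihood fit, added after seeing the data, changed no call of the 6 genes.

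For the 5' UTR relative to the CDS, the count of 6 genes became 0 with 1 scaling for both regions, 20 with at least 20 counts per region, 0 with the replicate block (Tap1 edgeR adjusted p = 0.426), and 0 to 9 without each library. Tap1 there ran from -1.79 to -1.25 without each library. For edge counts, chosen after seeing the data, 0 genes became 4 with 1 scaling, 3 with at least 20 counts, and 0 to 3 without each library (3 without activated replicate 4). The Tap1 edge ratio, -0.01, was 0.0552 with at least 20 counts and -0.19 to 0.16 without each library. The cause of these shifts was not tested, except that a higher minimum tests fewer genes. Low counts limit Nlrc5 and all 5' UTR values.

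The labels do not say that equal replicate numbers mark paired libraries. Across genes, 2 libraries with the same number, each set against its group mean, had correlations of 0.13, 0.07 and 0.23. A resting and an activated library with different numbers had -0.16 to 0.01, lower in every case. Whether equal numbers mark pairs was not tested. With the replicate block 3455 genes changed, and B2m (0.32, edgeR adjusted p = 0.0315) and H2-K1 (0.31, edgeR adjusted p = 0.0474) passed.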

Other observations

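Outside the coding sequence and the 5' UTR the 6 genes left few records. Over the 6 libraries the 3' UTR held 70 counts of B2m, 117 of H2-K1, 36 of H2-D1, 6 of Tap1, 37 of Tapbp and 4 of Nlrc5. Introns held 137 counts of H2-K1, 13 to 32 in each library, and 6, 5, 0, 3 and 8 of B2m, H2-D1, Tap1, Tapbp and Nlrc5. Per 100 CDS counts, 3' UTR counts of Tapbp ran from 0.236 to 3.07, with the highest value in activated replicate 2 (15 counts) and the lowest in activated replicate 4 (2 counts).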
